A study of Mus musculus with 6 samples.

Results

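Cell cycle inhibitors and the p53 circuit were measured in mouse hearts, from sham animals and after tail-suspension, through 10 genes, taken as every probe whose gene name on the array is Cdkn1a, Cdkn1b, Cdkn1c, Cdkn2a, Cdkn2b, Cdkn2c, Cdkn2d, Trp53, Mdm2 or Ccng1. They held 15 of the 55681 non-control probes, and the array names 28909 genes in all. In tail-suspension a mouse hangs by the tail with its hind feet clear of the cage floor, a ground model of weightlessness. Cardiac muscle RNA came from 6 male C57BL/6 mice, of which 3 were suspended for 28 days and 3 shams were housed in the same space under the same feeding conditions without suspension. The labels give 10 weeks as the age at the start and 11 weeks as the age of every animal, which cannot both hold for a mouse after 28 days of suspension. Each RNA was labelled in 1 colour and read on 1 Agilent array.

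The inhibitors fall into CIP/KIP proteins, which bind most cyclin-dependent kinase complexes, and INK4 proteins, which bind the kinases that work with D-type cyclins. The p53 protein is a transcription factor that switches on Cdkn1a, Mdm2 and Ccng1, and the Mdm2 protein in turn marks p53 for destruction. Most adult cardiomyocytes have left the cell cycle, and CIP/KIP and INK4 inhibitors are among the proteins that hold them there, whereas the fibroblasts and endothelial cells of a heart can still divide.

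The values given below are processed intensities, the brightness of a probe after background correction, and differences are on the log2 scale after each array was set relative to its 75th percentile, which lay between 302 and 376. Tests were run on probes whose signal passed as well above background in all 3 arrays of the shams, of tail-suspension or of both. This held for 28032 probes, read as 17140 genes through the brightest tested probe of each gene, and for 11 probes of 9 of the 10 genes. No spot was saturated, all arrays lay on 1 slide read in 1 scan, and each array read 50.9% to 53.4% of probes well above background. Tail-suspension 2 and 3 lay in row 2 of the slide and the other 4 arrays in row 1. All 7 cardiomyocyte markers examined were well above background on every array. Of the markers of other cells, those of neutrophils had a median log2 difference of 2.31 over 5 genes, which was 1.13 under normexp background correction. The value of 2.31 is that of Mpo, which was well above background on no sham array and was at least 2.20-fold higher. Red cell markers had a median of -1.52 over 4 genes. Of these, 0 passed by limma or by the methods' t-test and 3 had an unadjusted limma p under 0.05. With only probes well above background on all 6 arrays tested, 2 of these 4 passed. The labels call the samples replicates and the design text speaks of 3 mice a group, so p-values measure the spread between 3 and 3 hearts. In whole tissue, fewer cells of a type and less RNA per cell cannot be told apart.

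Both starts of Cdkn1a that RefSeq lists are shown because this gene had the largest change of the 10 genes and the array holds a probe for more than 1 of its transcripts. The lines give the 250 bases before each start on the plus strand of GRCm38.p6, at chr17:29090729-29090978 and chr17:29093519-29093768, with the letters ACATGT in capitals. ACATGT is the same on both strands.
Cdkn1a, upstream start: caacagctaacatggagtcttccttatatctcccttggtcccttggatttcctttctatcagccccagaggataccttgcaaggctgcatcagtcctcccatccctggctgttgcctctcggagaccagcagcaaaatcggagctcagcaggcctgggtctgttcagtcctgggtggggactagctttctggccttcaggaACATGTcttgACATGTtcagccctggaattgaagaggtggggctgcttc
Cdkn1a, downstream start: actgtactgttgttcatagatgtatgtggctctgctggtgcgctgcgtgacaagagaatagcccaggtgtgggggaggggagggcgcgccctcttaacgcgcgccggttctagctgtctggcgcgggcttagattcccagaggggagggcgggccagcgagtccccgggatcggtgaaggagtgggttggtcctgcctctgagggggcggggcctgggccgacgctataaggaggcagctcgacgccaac

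The upstream window held ACATGT 49 and 39 bases before the start, and the downstream window did not hold it. Of all 32851 windows of 300 bases around RefSeq starts, 5.28% held ACATGT and 0.329% held it at least 2 times. The consensus half-site of p53, which can contain ACATGT, was found in 8.36% of windows and in 5 of the 12 windows of these genes, those of Ccng1, Cdkn2d, Mdm2, Trp53 and the upstream start of Cdkn1a. The upstream window held 2 such matches, and 1 of them covers the first ACATGT. The letters were chosen after the sequence was seen, and a match is a description of the sequence only. CACGTG, the E-box that Myc can bind, was in a window of Cdkn2c and in that of Trp53, against 7.15% of all windows. TGTTTAC, a forkhead motif, was in that of Mdm2, against 3.65%.

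The probes behind the 4 genes whose levels passed the test are shown by the first 30 of their 60 bases, with the other probes of Cdkn1a. Their positions are those of the files, on mm9, and cannot be set against the GRCm38.p6 windows.
Cdkn1a, 3′-most probe, chr17:29237377-29237436, plus strand: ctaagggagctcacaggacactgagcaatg
Cdkn1a, middle probe, chr17:29235299-29235358, plus strand: tggggtagtttccatagtgacccgggtcct
Cdkn1a, 5′-most probe, chr17:29227986-29228045, plus strand: aatggagacagagaccccagataattaagg
Cdkn1c, chr7:150644753-150644812, minus strand: cgtagagcagcccacggttttgtggaaatc
Cdkn2c, chr4:109333508-109333567, minus strand: cagtgtctgacttggagactttgttttaaa
Ccng1, chr11:40562427-40562486, minus strand: agaaataaaattgctgagtttatctgcaaa

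After 28 days of tail-suspension, Cdkn1a was 6.16-fold higher and Cdkn2c 1.58-fold higher than in sham hearts, while Cdkn1c was 1.46-fold lower and Ccng1 1.47-fold lower. These 4 of the 9 tested genes passed an adjusted p of 0.05 (limma with Benjamini-Hochberg adjustment over all 28032 probes), against 21.2% of the 17140 tested genes, of which 10.6% were higher and 10.5% lower. By probe, 5 of 11 passed, against 20.4% of all probes. The sham and tail-suspension arrays did not overlap for 7 of the 9 genes, against 46.5% of all genes. Among the 9 genes the median size of the log2 difference was 0.45, and among all tested genes it was 0.23. The exact permutation test of 3 against 3 arrays gave p = 0.1 for each gene without overlap, the smallest value it can reach. By limma with slide row as a block 0 of the 9 genes passed, and 3 had an unadjusted p under 0.05, in a fit where the difference equals tail-suspension 1 against the mean of the shams.

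**Figure D1:**
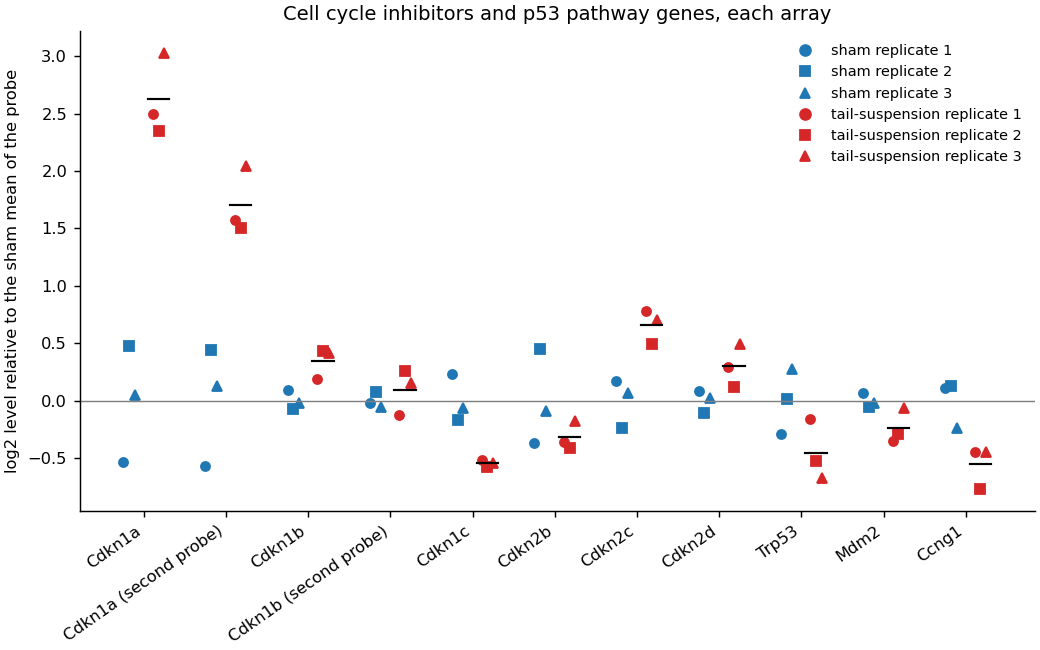
Log2 level of each tested probe on each array relative to the sham mean of that probe, with sham arrays in blue, tail-suspension arrays in red and a black bar at the tail-suspension mean. Both Cdkn1a probes stand apart from the others, with tail-suspension means 2.62 and 1.71 above the sham mean, while the other 9 probes lie between -0.55 and 0.66.

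Of the CIP/KIP inhibitors, Cdkn1a encodes p21, which arrests cells in response to p53 and to other signals. Its 3′-most probe, designed on NM_007669 and spotted many times, read 454, 910 and 638 in the shams and 3928, 3901 and 6245 in tail-suspension. All 3 tail-suspension values lay above the highest sham value, and 8 to 10 spots stood behind each. The log2 difference was 2.62 (SE 0.29, 95% interval 1.93 to 3.31, n = 3 and 3, limma adjusted p = 0.00383), which ranked 58th from the highest among 17140 genes. Of the 4 genes that passed, its spread in the shams was the widest, with an SD of 0.51 against 0.36 in tail-suspension. The call was lost only with slide row as a block, where the difference was 2.50 (adjusted p = 0.0593), and it held without each array in turn, between 2.36 and 2.86.

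The other Cdkn1a probes were dim. The middle probe, designed on an Ensembl transcript, read 18.1, 36.0 and 27.4 in the shams and 84.5, 88.7 and 129 in tail-suspension. It too did not overlap between the groups, and it kept the order of the arrays within the shams, with sham 1 lowest and sham 2 highest. Its log2 difference was 1.71 (SE 0.28, limma adjusted p = 0.0113), 3.27-fold. Under normexp background correction with an offset of 50 it was 0.60, and still passed. The call was lost under the slide row block, at 1.58 (adjusted p = 0.124), and by the methods' t-test (adjusted p = 0.0588). The 5′-most probe, designed on the variant NM_001111099, was well above background on 2 of 3 arrays of each group and was not tested. It read 9.15, 18.2 and 18.7 in the shams and 25.7, 16.8 and 31.6 in tail-suspension. These values overlapped, with a difference of 0.50 (exact permutation p = 0.4), and lay close to the lowest signal well above background, 14.0 to 19.5 on the 6 arrays.

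**Figure D2:**
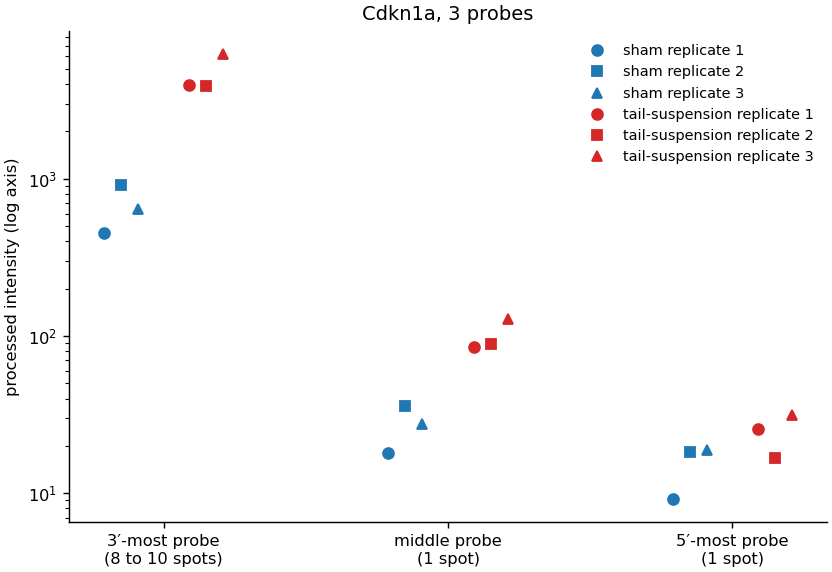
Processed intensity of the 3 Cdkn1a probes on each array, on a log axis, with sham arrays in blue and tail-suspension arrays in red. The groups are apart for the 3′-most and the middle probe, and overlap for the 5′-most probe, whose highest value is 31.6. Brightness is not comparable between probes.

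Cdkn1b encodes p27, the inhibitor that the Skp2 ubiquitin ligase marks for destruction. Its brighter probe read 1938, 1718 and 1676 in the shams and 2192, 2869 and 2820 in tail-suspension. The groups did not overlap, but tail-suspension 1 lay close to the highest sham, and the log2 difference of 0.35 (SE 0.10, 95% interval 0.10 to 0.59) did not pass the test (limma adjusted p = 0.0594). It passed in 4 of 19 alternatives, and the slide row block gave 0.19. The second Cdkn1b probe read 46.8, 49.8 and 42.9 in the shams and 46.1, 66.5 and 61.9 in tail-suspension, which overlapped (log2 difference 0.10, SE 0.12, limma adjusted p = 0.591). Its sign turned under normexp correction, to -0.063, and under the slide row block, to -0.127.

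Cdkn1c encodes p57, an imprinted inhibitor, and was the CIP/KIP gene that was lower. It read 2228, 1672 and 1693 in the shams and 1402, 1485 and 1517 in tail-suspension. All 3 tail-suspension values were below the lowest sham value and close to each other, with an SD of 0.03 on the log2 scale against 0.21 in the shams. It fell by 0.54 on the log2 scale (SE 0.12, limma adjusted p = 0.0272). The call was lost whichever of the 6 arrays was left out, at differences of -0.63 to -0.43 and adjusted p of 0.0505 to 0.0828.

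Of the INK4 inhibitors, Cdkn2c, which encodes p18, was the gene that rose. It read 212, 159 and 185 in the shams and 344, 310 and 357 in tail-suspension. The lowest tail-suspension value was above the highest sham value. The log2 difference was 0.66 (SE 0.14, 95% interval 0.33 to 0.99, limma adjusted p = 0.0234), 1.58-fold. It ranked 1139th from the highest of 17140 genes and passed in 13 of 19 alternatives. Without sham 2, tail-suspension 1 or tail-suspension 3 it did not pass, with limma adjusted p of 0.0701, 0.0679 and 0.0774.

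Cdkn2d, which encodes p19, read 2242, 1941 and 2010 in the shams and 2744, 2683 and 3473 in tail-suspension. The groups did not overlap, and the log2 difference of 0.30 (SE 0.12, 95% interval 0.01 to 0.59) did not pass the test (limma adjusted p = 0.117). Array weights gave the only alternative in which it passed, at 0.38. Cdkn2b encodes p15, an inhibitor that TGF-beta signals raise in many cells. Its tested probe read 48.2, 84.1 and 54.5 in the shams and 51.1, 54.5 and 63.9 in tail-suspension. Sham 2 was the highest of the 6 and the remaining values overlapped (log2 difference -0.32, SE 0.21, limma adjusted p = 0.307). Without sham 2 the difference was -0.089, and without sham 1 it was -0.50. The second Cdkn2b probe was well above background on sham 2 alone.

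Cdkn2a, from which the p16 and ARF proteins are made, was not tested. Its brighter probe rose well above background in 1 sham and in no tail-suspended heart, with intensities of 15.7, 14.6 and 17.3 in the shams and 11.4, 15.5 and 9.10 in tail-suspension. Since 1 of the 6 values was well above background, no fold is given. Its second probe was not well above background on any array. Both probes carry the same transcript accession, so nothing here separates p16 from ARF.

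In the p53 circuit, Ccng1 was lower and neither Trp53 nor Mdm2 passed the test, while Cdkn1a, the target described above, was higher. Trp53 itself read 41.9, 51.5 and 58.2 in the shams and 48.8, 41.7 and 37.5 in tail-suspension. Tail-suspension 1 lay above sham 1, so the groups overlapped. The log2 difference was -0.45 (SE 0.19, 95% interval -0.90 to 0.003, limma adjusted p = 0.133), and it was -0.15 with the slide row as a block. None of the 19 alternatives brought it past the threshold.

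Mdm2 encodes the main ubiquitin ligase of p53 and is induced by it. It read 5701, 5206 and 5018 in the shams and 4500, 5193 and 6046 in tail-suspension. These intensities overlapped, but after scaling each array to its 75th percentile all 3 tail-suspension levels were below the lowest sham level. The log2 difference was -0.24 (SE 0.10, 95% interval -0.49 to 0.01, limma adjusted p = 0.148), and no alternative passed the threshold.

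Ccng1 encodes cyclin G1, a p53 target that recruits a phosphatase to Mdm2. It read 20008, 20007 and 14673 in the shams and 14399, 12703 and 15790 in tail-suspension. Sham 3 was clearly below the other shams, and after scaling the groups did not overlap. It fell by 0.55 on the log2 scale (SE 0.14, limma adjusted p = 0.0414). The call held without sham 3, at -0.67 (adjusted p = 0.0352), and was lost whichever other array was left out, with limma adjusted p of 0.0747 to 0.135.

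**Figure D3:**
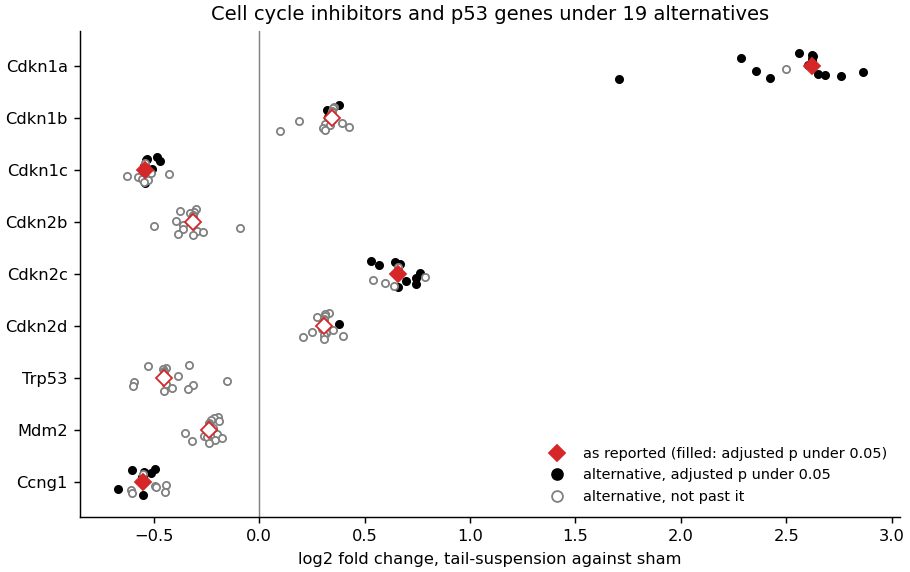
Log2 fold change of tail-suspension against sham for the 9 tested genes as reported (red diamonds) and under 19 alternatives (circles), filled where the adjusted p is under 0.05. No gene changes sign. Cdkn1a passed in 18 alternatives, Cdkn2c in 13, Ccng1 in 10 and Cdkn1c in 9.

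The genes whose levels ran closest to Cdkn1a over the 6 arrays were 9530025H10Rik, Cdkl3 and Alcam, with Pearson r between 0.996 and 0.997, and the genes that ran most opposite were Yipf6, Tnxb and Slc26a2, with r between -0.999 and -0.997. The coefficients come from 6 arrays in 2 groups, were the extremes of 17119 other genes, and belong to genes that all passed the test between the groups. Alcam was tested only through tail-suspension, where it read 37.5, 39.1 and 49.0, against 9.17, 15.1 and 10.1 in the shams. These sham values lay below the lowest signal well above background on their arrays. Slc26a2 was tested only through the shams, where it read 34.0, 27.7 and 27.3, against 17.9, 19.5 and 17.2 in tail-suspension. Its value on tail-suspension 2 lay just below the lowest signal well above background on that array.

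The wider pathway was read through 8 lists that leave the 10 genes out and were not tested as sets. Of all 17140 tested genes 21.2% were called, 10.6% higher and 10.5% lower. The share called was 31.25% of p53 targets, 45% of cyclins and CDKs, 37.5% of pocket protein and E2F genes and 41.7% of inhibitor turnover genes. It was 39.1% of other regulators and 40% of senescence-associated genes. Among the p53 targets, 7 of 32 tested genes were higher and 3 lower, with a median log2 difference of 0.12 against -0.01 for all genes. Under normexp background correction the median of the list was 0.03, against -0.06 for all tested probes. Trp53inp1, which promotes cell death and autophagy, read 395, 412 and 374 in the shams and 841, 988 and 1352 in tail-suspension (log2 difference 1.19, SE 0.15, limma adjusted p = 0.00588). Sesn1, a sestrin that restrains mTOR, was higher by 1.06 and Fas, a death receptor, by 1.04. Gadd45a, a stress gene that p53 and other factors induce, fell by 1.02, from 572, 381 and 387 to 272, 230 and 250. Another 3 genes often read as p53 targets, named here after their values were seen, did not pass, with log2 differences of 0.05 for Bax, 0.25 for Bbc3 and -0.08 for Zmat3. The remaining higher genes, named likewise, were Ddit4 at 0.70, Ddb2 at 0.52, Dram1 at 0.46 and Xpc at 0.33. The number called was 10. It was 5 without sham 1, sham 2 or tail-suspension 1, 4 without tail-suspension 3, and 0 by limma with the slide row as a block, where 12 had an unadjusted p under 0.05.

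Of 25 regulators and relatives of p53, 3 were higher and 1 lower, 16.0% in all, below the 21.2% of all genes. Chek2, a kinase that phosphorylates p53 after DNA damage, read 70.3, 68.5 and 62.8 in the shams and 34.3, 32.7 and 21.8 in tail-suspension and fell by 1.42 on the log2 scale (SE 0.20, limma adjusted p = 0.00774). Under normexp correction it fell by 0.71. Ppp1r13l, which encodes the p53 inhibitor iASPP, was 0.76 higher, Ing1 0.51 and the acetyltransferase gene Ep300 0.49. Without sham 2 the list held 1 called gene, and without tail-suspension 3 it held 2.

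**Figure D4:**
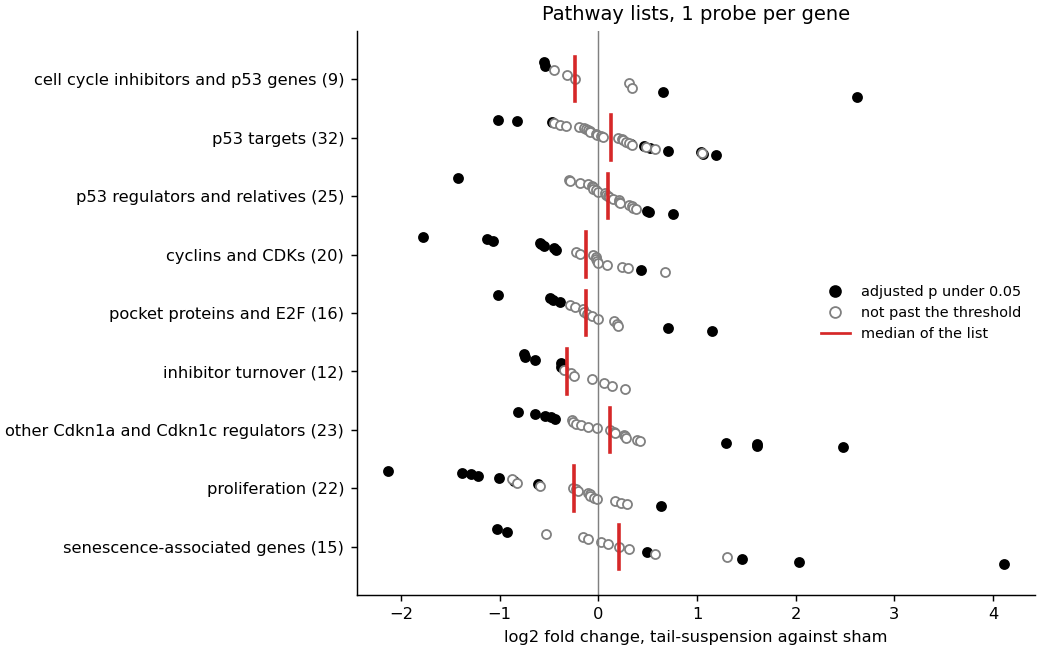
Log2 fold change of tail-suspension against sham for every tested gene of each list, with the number of tested genes in brackets. Filled points passed an adjusted p of 0.05 and red bars are list medians, which run from -0.31 to 0.20.

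The partners and targets of the inhibitors were mostly lower where they passed the test. Among cyclins and CDKs, 8 of 20 tested genes were lower and 1 higher. Ccnd1, the D-type cyclin that INK4-bound kinases need, read 3370, 3810 and 4238 in the shams and 2610, 1671 and 2079 in tail-suspension and fell by 1.07 on the log2 scale (SE 0.21, limma adjusted p = 0.0203). Ccnd2 fell by 0.59 and the mitotic cyclin Ccnb2 by 1.13. The slide row block gave -0.66 for Ccnd1 and -0.38 for Ccnd2, neither past the threshold, and normexp correction -0.73 for Ccnb2. Ccna2, the S-phase cyclin, was tested through the shams, where it read 38.8, 58.8 and 93.2, against 18.1, 16.9 and 26.8 in tail-suspension, where 2 of 3 arrays read it well above background. Its log2 difference was -1.77, or -0.78 under normexp correction. Among the 19 genes well above background on all 6 arrays, 8 passed. Cdk9, a kinase of transcription rather than of the cell cycle, was 0.44 higher. With 1 array left out the list held between 0 and 6 calls, with 0 without sham 2 (12 at an unadjusted p under 0.05, limma), 2 without tail-suspension 3, 3 without tail-suspension 1 and 4 without sham 1.

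Of the 16 pocket protein and E2F genes, which act below the cyclin-dependent kinases, 2 were higher and 4 lower. Tfdp2, a dimer partner of E2F proteins, was 1.15 higher and Rbl2, the p130 pocket protein of resting cells, 0.70 higher, from 208, 198 and 205 to 312, 485 and 373. E2f2 fell by 1.02 (0.66 under normexp correction) and the repressor E2f6 by 0.49. The list held 1 call without tail-suspension 3, 2 without sham 1 or sham 2 and 3 without tail-suspension 1 or 2. With the slide row as a block it held 0 by limma, and 6 at an unadjusted p under 0.05.

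Of 12 genes of inhibitor turnover, 5 were lower and none higher. Skp2, Cks1b and Skp1a act together on p27. The cofactor Cks1b fell by 0.75 on the log2 scale and the adaptor Skp1a by 0.38. For Skp2, the F-box protein that binds p27, the difference was -0.64. Cdc34, the ubiquitin-conjugating enzyme, fell by 0.76 (SE 0.11, limma adjusted p = 0.00821), from 27683, 25830 and 20684 to 15953, 17924 and 16662. Skp2 was dim, with 20.7, 22.9 and 26.6 in the shams and 14.8, 18.5 and 18.9 in tail-suspension, and 1 of the last 3 was well above background, so it was tested through the shams. Under normexp correction its difference was -0.35 and did not pass, and of the 11 genes well above background on all 6 arrays 4 passed. Without sham 2, tail-suspension 1 or tail-suspension 3 the list held 2 calls, without sham 1 it held 3, and under normexp correction 2.

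Among 22 proliferation genes, 7 were lower and 1 higher, 36.4% in all. Prc1, Foxm1 and Nusap1, of the 7, were tested only through the shams, where they were brighter. Among the 19 genes well above background on all 6 arrays, 5 passed. Prc1, of the spindle midzone, read 61.1, 98.0 and 121 in the shams and 20.1, 20.5 and 32.2 in tail-suspension, of which 2 of the last 3 were well above background. Its log2 difference was -2.14, and -1.04 under normexp correction. Cenpa, the histone of centromeres, fell by 1.38, Ube2c, of the anaphase-promoting complex, by 1.29 (0.76 under normexp correction) and Rrm2, of deoxynucleotide synthesis, by 1.22. Cenpa, Ube2c and Rrm2 passed under all 19 alternatives. Mcm7, of the replicative helicase, was 0.63 higher, while Mki67, named after its value was seen, had a difference of -0.83 that did not pass (limma adjusted p = 0.220).

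The markers of other cell types in a heart moved in part with these genes. Each summed level given for them is weighted towards the brightest markers of its list. Of 6 endothelial markers, 3 were lower, Kdr by 0.55 on the log2 scale (0.25 and not past the threshold with its median probe), and 1 of the 6 differences was positive. By the methods' t-test 1 passed. By limma 0 passed without the filter on dim probes or without sham 2, where 3 and 4 had an unadjusted p under 0.05. The summed level of the 6, in multiples of the 75th percentile, was 41.4 to 44.2 in the shams and 30.5 to 34.4 in tail-suspension. Of 4 lymphocyte markers tested, 2 were lower, and the summed level was 2.37 to 2.64 in the shams and 2.06 to 2.45 in tail-suspension. The fibroblast markers gave 0 calls among 6 by limma or the methods' t-test (3 had an unadjusted limma p under 0.05), with Col1a1 at -0.95, and a summed level of 263 to 282 and 273 to 341. In that sum Dcn weighs most, at a log2 difference of 0.34, while 4 of the 6 differences were negative. The red cell markers had a summed level of 428 to 689 in the shams and 106 to 344 in tail-suspension, with Alas2 at -1.62. Their part in the lower cyclins, E2F, turnover and proliferation genes was not tested.

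The list of other regulators of Cdkn1a and Cdkn1c split, with 4 of 23 tested genes higher and 5 lower. Its median turned from 0.12 to -0.06 under normexp background correction, and was 0.04 to 0.13 under the other scalings. The 5 lower genes, named after their values were seen, were Egr1 at -0.82, Bcl6 at -0.64, Nr3c1 at -0.54, Smad3 at -0.48 and Smad2 at -0.44. The 4 with the largest changes were all higher. Zbtb16, a zinc finger repressor that responds to glucocorticoids, read 1830, 1177 and 1414 in the shams and 6771, 9788 and 12295 in tail-suspension (log2 difference 2.48, SE 0.23, limma adjusted p = 0.00261). Foxo3, a forkhead activator of Cdkn1a and Cdkn1b, was 1.61 higher, from 123, 94.9 and 89.8 to 361, 325 and 392. Myc, a repressor of Cdkn1a, was 1.60 higher, from 42.1, 45.4 and 40.0 to 184, 114 and 160, and 0.80 higher under normexp correction. Cebpb was 1.29 higher. Zbtb16, Foxo3 and Myc passed under all 19 alternatives, the slide row block included, and Cebpb did not pass without sham 1, sham 2 or tail-suspension 3. Without sham 1, sham 2 or tail-suspension 3 the list held 3 called genes.

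Of 15 senescence-associated genes, 4 were higher and 2 lower. Ccl8, a chemokine, read 68.2, 53.3 and 115 in the shams and 1764, 719 and 2630 in tail-suspension (log2 difference 4.11, SE 0.52, limma adjusted p = 0.00588). Mmp3, a matrix protease, was 2.04 higher and Igfbp3, a growth factor binding protein, 1.45 higher. Lmnb1, a lamin whose loss is used as a sign of senescence, fell by 1.02 (0.66 under normexp correction). Without sham 2 the list held 3 calls. Blood and immune markers also differed: of 5 neutrophil markers tested 3 were higher, S100a8 by 4.8. Mpo, 1 of the 3, was tested only through tail-suspension, and of the 4 markers well above background on all 6 arrays 2 passed. The list median was -3.10 to -2.54 in the shams and 0.55 to 3.31 in tail-suspension on the log2 scale. The summed level of the 5 was 143 to 171 and 206 to 234. In that sum Csf3r, the brightest of them, weighs most, with a log2 difference of 0.30 that did not pass. Of 5 macrophage markers 1 was higher, Cd163, at least 3.39-fold and well above background on no sham array, which did not pass under normexp correction. The summed level of the 5 was 23.0 to 30.3 and 24.3 to 37.6, in which Csf1r weighs most, with a log2 difference of 0.13 that did not pass. The part of these blood and immune cells in the higher Cdkn1a, p53 target, regulator and senescence-associated genes was not tested.

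**Figure D5:**
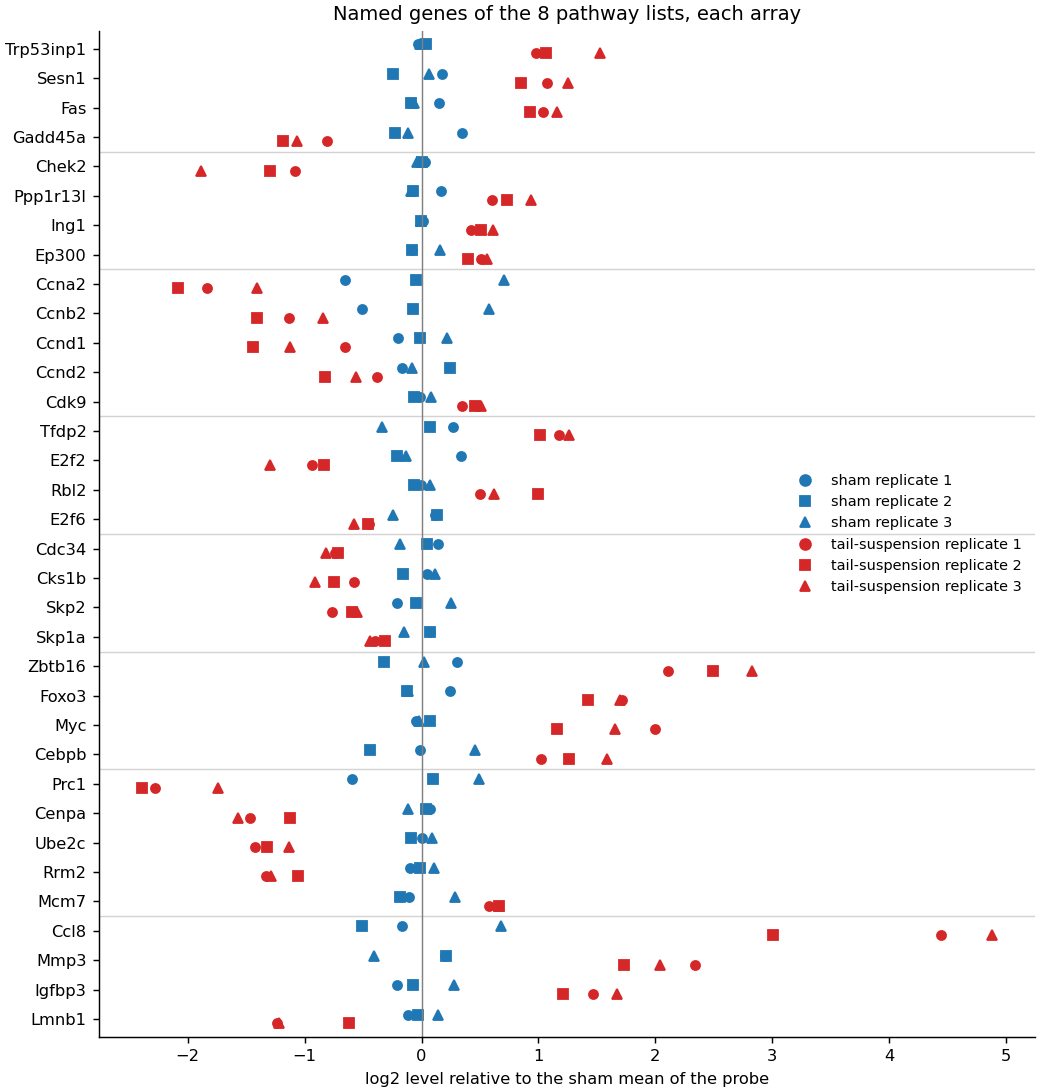
Log2 level on each array relative to the sham mean for the named genes of the 8 lists, in blocks from top to bottom: p53 targets, p53 regulators and relatives, cyclins and CDKs, pocket proteins and E2F, inhibitor turnover, other regulators of Cdkn1a and Cdkn1c, proliferation and senescence-associated genes. Sham arrays are blue and tail-suspension arrays red, and the groups do not overlap for any gene shown.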

How the data were processed

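The authors extracted each 1-colour array with Agilent Feature Extraction 10.7.1.1 and deposited its processed intensity, a background-corrected brightness per spot. They also deposited log2 values of the same arrays, used here as an alternative. These have nearly identical sorted columns, and how they were scaled is not given in the sources used here. The files hold no comparison by the authors.

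Control spots and outlier spots were left out, spots of a probe were averaged as log2 values, and each array was set relative to its 75th percentile. Where a probe had several spots, 50% of them had to be well above background for the array to count. Probes reaching this on all 3 arrays of the shams, of tail-suspension or of both were compared with limma 3.58.1 in R 4.3.3 (lmFit and eBayes, no covariates, Benjamini-Hochberg over all tested probes, threshold 0.05). The number of arrays limits the precision. The brightest tested probe stood for its gene. The 19 alternatives changed the background correction, scaling, probe filter, probe of a gene or model, used the methods' t-test on the same values, added a block or left out 1 array.

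The 10 genes and the lists were chosen with earlier results of these data known. Of each list, up to 4 called genes with the largest change were named, with the largest called gene against the majority, for Cdkn1a the 3 most and 3 least alike genes, and 1 gene per marker list, except that the lymphocyte gene is not reported here. The lists held 252 entries, of which Ly6g had no match among the array's names. The adipocyte list had 1 tested gene, Fabp4 (log2 difference 0.22), and smooth muscle markers gave 0 calls among 4 by limma or the methods' t-test (1 had an unadjusted limma p under 0.05), with Cnn1 at 0.64. Among 7 cardiomyocyte markers 1 was called, Actc1, which fell by 0.33 (by 0.19 under quantile scaling and 0.07 in the authors' log2 values, neither past the threshold). The probes of Myh6, named after their values were seen, differed. Its brightest probe had a log2 difference of -0.09 that did not pass, and a dimmer probe -1.47 (SE 0.23, limma adjusted p = 0.00957). Promoter windows are from RefSeq (GRCm38.p6) and matched 9 of the 10 genes by symbol, all but Cdkn1c. On simulated data with 28003 probes, of which 200 were changed, 54% of changes of 1 and 87% of changes of 2 on the log2 scale were called, and 12 unchanged probes. In the real data 20.4% of probes were called, so these rates need not hold there.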

Additional observations from a re-analysis of the deposited data

How the results depend on the processing

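Of the 10 genes, 2 were called higher and 2 lower. Array weights gave 4 higher, no filter on dim probes 1 and 0, the methods' t-test with adjusted p 1 and 0, and the slide row block 0 and 0. With 1 array left out, 1 to 2 were higher and 0 to 1 lower. Left-out arrays gave 0 to 6 cyclins and CDKs, 2 to 5 inhibitor turnover genes, 1 to 5 pocket and E2F genes, 4 to 10 p53 targets, 1 to 5 p53 regulators, 3 to 9 other regulators, 6 to 9 proliferation genes and 3 to 8 senescence-associated genes. Without the filter these lists, in that order, held 0, 2, 1, 4, 2, 3, 6 and 3 calls, by the methods' t-test 4, 3, 1, 4, 4, 5, 6 and 4, and with the slide row block 0, 0, 0, 0, 0, 3, 3 and 1. Array weights called 8 p53 regulators, normexp correction 2 turnover genes and the filter on all 6 arrays 5 proliferation genes. Of the results recomputed, which leave out the genes named for likeness or after their values were seen, the second Cdkn1b probe alone reversed, to -0.063 under normexp and -0.127 under the slide row block. With the median probe in place of the brightest, Cdkn1a was read at 1.71 and Cdkn1b at 0.10. The cause was not tested.

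Replicate numbers do not pair the samples: same-numbered arrays had correlations of deviations of -0.02, -0.02 and 0.05. With the replicate block, 2 of the 10 genes were higher (Cdkn1a 2.62, adjusted p = 0.0152, and Cdkn2c 0.66) and 0 lower, with 5 cyclins and CDKs, 3 turnover genes and 2 pocket and E2F genes called. Over all probes the block gave 1714 higher and 1403 lower calls in place of 3023 and 2683, no filter gave 1041 and 790, the methods' t-test 1532 and 1248, and the slide row block 320 and 177. A block on slide or scan could not be fitted, since all arrays lay on 1 slide read in 1 scan. Signals near background limit the Cdkn2a, Skp2, Ccna2 and Prc1 values and the dim Cdkn1a probes.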
